A study of Brassica juncea with 2 samples.

Results

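AP2/ERF transcription factors were followed in seedlings of B. juncea var. CS52, an Indian mustard variety adapted to saline soils. They were taken by the wording of the annotation that the authors gave each unigene, an assembled transcript with redundant copies merged. The wording, read in any case, was Integrase-type DNA-binding, ethylene response factor, ethylene responsive element with or without a hyphen, ERF domain, DREB, AP2 or C-repeat. It matched 146 of the 47513 unigenes. By name these were 55 Integrase-type DNA-binding superfamily proteins, 24 ethylene response or ethylene responsive element binding factors (ERF), 23 related to AP2 factors (RAP2), 3 further AP2-domain factors, 32 AP2/B3 factors, 1 DREB2A-interacting protein and 8 phosphatidic acid phosphatases. The last group was caught only because its enzyme name PAP2 contains the letters AP2. The word C-repeat matched 0 unigenes and DREB matched only the interacting protein, so no unigene in the set is named as a DREB or C-repeat binding factor itself. The AP2/ERF-domain factors by name were therefore 137, of which the AP2/B3 name also covers B3-domain proteins that need not hold an AP2 domain.

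The AP2 domain is a plant DNA-binding fold. Factors with this domain include the ERF group, which binds the GCC box of ethylene- and defence-responsive promoters, and the DREB group, which binds the dehydration-responsive or C-repeat element of cold- and drought-responsive promoters. In Arabidopsis, the binding of ethylene to its receptors lets the EIN3 family of regulators build up, and these switch on ERF genes. Some ERF factors activate their targets, and others carry a repression motif and silence them. The name Integrase-type DNA-binding is the Arabidopsis annotation for the domain fold and does not tell the ERF and DREB groups apart.

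Seedlings of 2 weeks by the labels were kept for 24 h in 200 mM salt (SS) or in water (CTRL, labelled wild type), and both groups were of the same variety. About 10 seedlings were pooled for each library, and there was 1 library per condition, so no difference was tested and none has a replicate check. The reads on unigenes numbered 73982305 in SS and 77863911 in CTRL. Levels are given in RPKM, the reads per kilobase of unigene, scaled to the high-quality reads of the library. The deposited SS values lack the correction for length, and they were rescaled to each unigene's own length, recovered from the CTRL values. Ratios are SS over CTRL and carry a 95% interval for counting error alone. A log2 ratio was taken after adding 0.1 RPKM to both levels, which understates the change of low unigenes, and was read for unigenes with 1 RPKM or more in at least one library. Since tissue from about 10 seedlings was pooled, fewer cells of a type and less RNA per cell cannot be told apart.

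The AP2/ERF set had low levels, not far below those of all unigenes, and its log2 ratios lay below 0 more often than above. This held for 61.9% of its unigenes at 1 RPKM or more. The share was 57.4% over all unigenes and 62.2% over the B. rapa series of the assembly. The 146 unigenes of the set held 50012 reads in SS and 55720 in CTRL, which is 0.0676% of the SS and 0.0716% of the CTRL reads on unigenes. Of the 146, 134 reached 1 RPKM, with a median of 2.84 RPKM in SS and 2.87 RPKM in CTRL, against 3.27 RPKM in SS and 3.48 RPKM in CTRL over all 43250 unigenes that did. Only 11 unigenes of the set reached 10 RPKM in SS, and 11 did so in CTRL. Their levels correlated between the libraries much as those of all unigenes did, with Pearson's r of log2 levels at 0.916 over the 134, as a description over unigenes that share both libraries.

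Among these 134 unigenes, 1 was higher in SS by 2-fold or more (0.746%, beside 1.91% of all unigenes) and 10 were lower by as much (7.46%, beside 4.21% of all unigenes). The other 123 stayed within 2-fold. Most of the lower unigenes reached 1 RPKM only in CTRL, such as Bju_CS52_R_11134 with 0.73 RPKM in SS. The higher one reached it only in SS, with 0.90 RPKM in CTRL. The minimum level thus let them in through the library where they were high, and the same rule held for all unigenes. In the B. rapa series of the assembly, to which all but 1 of the set belong, 1.12% were higher and 4.13% lower. With a running trend over the unigene number, which follows length, taken out, 2 unigenes of the set were higher and 5 lower (3.73%), beside 3.25% lower over all unigenes. With 1 RPKM added in place of 0.1, 1 unigene of the set was lower (0.746%), beside 1.49% over all unigenes. None was higher, beside 0.932% over all unigenes.

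Smaller differences were near the background. The median log2 ratio of the set was -0.11, against -0.06 over all unigenes, and its extremes were -1.62 and 1.04. A log2 ratio below 0 was found for 61.9% of the set, where the share was 57.4% over all unigenes and 62.2% over the B. rapa series. The counting interval lay below 1 for 48 unigenes (35.8%) and above 1 for 24 (17.9%). In the background 31.8% lay below 1 and 20.7% above. The rapa series gave 36.4% and 18.1%. The set's own shares were close to those of the rapa series. Its larger share past 2-fold on the lower side rests on 10 unigenes and was not tested. Of these, 3 were matched to the same B. rapa gene, Bra007123. With 1 RPKM added the share was the smaller one, 0.746% beside 1.49%.

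**Figure D1:**
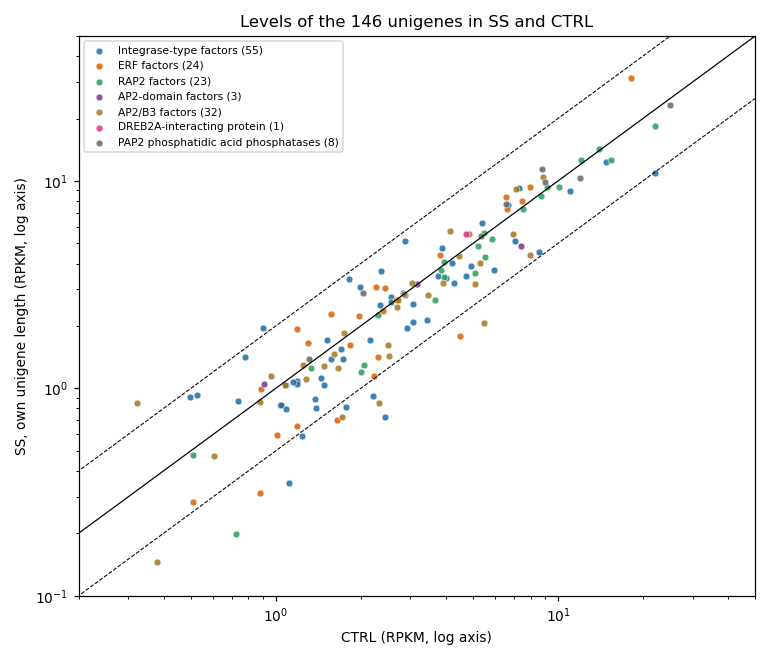
Level of each of the 146 unigenes in SS (vertical, RPKM with own length, log axis) against CTRL (horizontal, RPKM, log axis), coloured by annotated group. The solid line marks equal levels and the dashed lines 2-fold. Most points lie close to the solid line, and the highest, an ethylene-responsive element binding protein, has 31.2 RPKM in SS and 18.1 RPKM in CTRL.

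The annotated groups are given beside all unigenes, of which 4.21% were lower by 2-fold or more, 1.91% higher by as much and 57.4% below 0 (4.13%, 1.12% and 62.2% in the rapa series). Differences between the groups were not tested. The Integrase-type factors had the lowest median log2 ratio of the larger groups, -0.26 over 52 unigenes, with 37 below 0 (71.2%) and 15 above. Of these, 5 were at least 2-fold lower (9.62%) and 1 at least 2-fold higher (1.92%). This median stayed below 0 under every scaling tried, and came nearest to 0, at -0.06, with the trend over the unigene number removed. The AP2/B3 factors had a median of -0.16 over 28 unigenes, 67.9% of them below 0, with 3 at least 2-fold lower (10.7%) and 0 higher. The median came nearest to 0, at -0.03, with the trend removed. The 21 RAP2 factors kept to a narrow range, from -0.69 to 0.07, and none reached 2-fold. Their median of -0.10 became 0.13 with the SS values as deposited, which carry length (median 1131 bp for this group). The ERF factors were the only large group with a median above 0, at 0.15 over 21 unigenes. With the SS values as deposited it was -0.19, at a median length of 656 bp. Within this group 38.1% lay below 0, 2 unigenes were at least 2-fold lower (9.52%) and 0 higher, and the spread ran from -1.29 to 0.78. The phosphatases, which are no transcription factors, had a median of 0.10 over 8 unigenes and none past 2-fold.

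**Figure D2:**
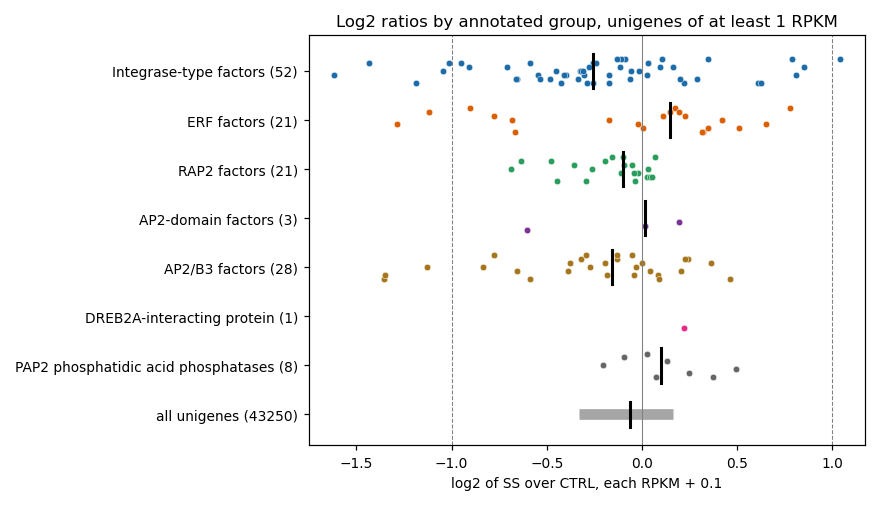
Log2 ratio of SS over CTRL (horizontal, each RPKM plus 0.1) for the unigenes of at least 1 RPKM, by annotated group, with 1 point per unigene and the number of unigenes in brackets. Black bars are medians, dashed lines mark 2-fold, and the grey band runs between the quartiles of all 43250 unigenes, whose median is -0.06. Points past the left dashed line occur among the Integrase-type, ERF and AP2/B3 factors, and the RAP2 factors keep to the right of -0.69.

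Among the Integrase-type factors, the unigenes matched to the B. rapa gene Bra007123 stood lowest. Bju_CS52_R_11134 had 39 reads in SS and 138 in CTRL on 595 bp, or 0.73 RPKM in SS and 2.45 RPKM in CTRL. Its ratio of 0.299 (0.204 to 0.429) was the lowest of the set among unigenes of 1 RPKM or more. Bju_CS52_R_2961 had 11 reads in SS and 37 in CTRL, and Bju_CS52_R_14900 had 57 reads in SS and 132 in CTRL. Their ratios were 0.314 (0.144 to 0.629) and 0.456 (0.328 to 0.627). The fourth unigene of this match, Bju_CS52_R_6778, was also lower in SS, with 32 reads in SS and 58 in CTRL, but did not reach 2-fold. Summed over the 4 unigenes, Bra007123 had 139 reads in SS and 365 in CTRL, a ratio of 0.402 (0.328 to 0.49). All 4 stayed below 0 on the log2 scale under each scaling and pseudocount tried, although only 2 remained past 2-fold with the trend removed and none with 1 RPKM added.

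The best covered of the lower unigenes was Bju_CS52_R_17774, an Integrase-type factor matched to Bra028690. It had 948 reads in SS and 2032 in CTRL on 969 bp, or 10.9 RPKM in SS and 22.1 RPKM in CTRL. It shared the top of the factors in CTRL with a RAP2.4 unigene, and in SS 8 unigenes of the set were above it. The ratio was 0.493 (0.456 to 0.533), whose interval spans 0.5, and with size factors or with the trend removed the log2 ratio was -0.95 and -0.94. Bju_CS52_R_4163, matched to Bra037041, had 31 reads in SS and 79 in CTRL, a ratio of 0.414 (0.264 to 0.635). The other unigene of that match, Bju_CS52_R_7117, had 24 reads in SS and 53 in CTRL, a ratio of 0.478 (0.282 to 0.789). Bra009250 held the Integrase-type unigene with the highest level in SS, Bju_CS52_R_15785, with 12.4 RPKM in SS and 14.8 RPKM in CTRL and a ratio of 0.837 (0.767 to 0.913). The second unigene of Bra009250, Bju_CS52_R_12887, was lower by more, with 275 reads in SS and 551 in CTRL, a ratio of 0.527 (0.454 to 0.610).

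A single unigene was at least 2-fold higher in SS. Bju_CS52_R_11735, an Integrase-type factor matched to Bra036360, had 109 reads in SS and 53 in CTRL on 621 bp, or 1.96 RPKM in SS and 0.9 RPKM in CTRL. Its ratio was 2.17 (1.55 to 3.08), and its log2 ratio of 1.04 became 0.61 on the deposited SS values and 0.64 with 1 RPKM added. Further Integrase-type factors were higher in SS by less than 2-fold and are named here after their values were seen. Bju_CS52_R_15252 had 243 reads in SS and 139 in CTRL, a ratio of 1.85 (1.49 to 2.29). Bju_CS52_R_24673 had 524 reads in SS and 353 in CTRL, a ratio of 1.57 (1.37 to 1.80). Both intervals lie above 1.

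**Figure D3:**
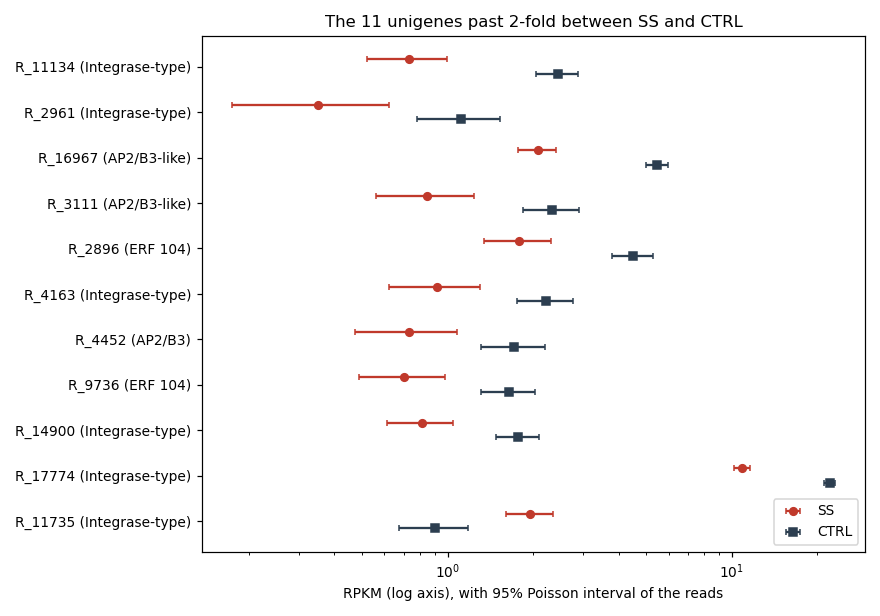
Levels of the 11 unigenes past 2-fold (horizontal, RPKM on a log axis) in SS (red circles, upper) and CTRL (dark squares, lower), with 95% Poisson intervals of the reads. In 10 rows the SS point lies left of CTRL. Bju_CS52_R_17774, with 10.9 RPKM in SS and 22.1 RPKM in CTRL, stands well above the other rows in level, and Bju_CS52_R_11735 is the only row with SS on the right.

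The ERF factors are taken by name. ERF104, which in Arabidopsis is a substrate of the mitogen-activated kinase MPK6 in ethylene and defence signalling, was lower in SS in all 4 of its unigenes. Bju_CS52_R_2896 had 56 reads in SS and 149 in CTRL, or 1.78 RPKM in SS and 4.49 RPKM in CTRL, a ratio of 0.397 (0.287 to 0.543). Bju_CS52_R_9736 had 34 reads in SS and 84 in CTRL, a ratio of 0.428 (0.278 to 0.644). The remaining pair, Bju_CS52_R_6770 and Bju_CS52_R_14154, had ratios of 0.549 (0.328 to 0.899) and 0.613 (0.47 to 0.795). The 4 unigenes stem from 2 B. rapa matches, Bra012938 with 3 and Bra029319 with 1, and both were lower in SS.

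The ethylene responsive element binding factors 1, 2 and 5, which act through the GCC box in Arabidopsis, were at low levels. Of the 2 unigenes of ethylene responsive element binding factor 2, Bju_CS52_R_9843 had 56 reads in SS and 115 in CTRL, a ratio of 0.514 (0.367 to 0.714), and Bju_CS52_R_6288 had 38 in SS and 36 in CTRL. Factor 1 had 20 reads in SS and 36 in CTRL on Bju_CS52_R_4114, and 22 in SS and 65 in CTRL on Bju_CS52_R_14851. Factor 5 had only 10 reads in SS and 19 in CTRL. Of these 5 unigenes 4 had fewer reads per kilobase in SS, but only 2 reached 1 RPKM.

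ERF7, a repressor which in Arabidopsis restrains the abscisic acid response, had 6 unigenes between -0.02 and 0.42, with 1902 reads in SS and 1740 in CTRL in all. The one with the largest ratio, Bju_CS52_R_16690, had 247 reads in SS and 193 in CTRL, a ratio of 1.35 (1.12 to 1.64). Ethylene responsive element binding factor 3 (Bju_CS52_R_14421) had 567 reads in SS and 469 in CTRL, a ratio of 1.28 (1.13 to 1.45). The 4 unigenes of factor 4 ran from 0.0039 to 0.32, with 1095 reads in SS and 1063 in CTRL. ERF domain protein 11 (Bju_CS52_R_12478) had 95 reads in SS and 114 in CTRL. None of these unigenes reached 2-fold. On the deposited SS values, which lack the correction for length, the medians of ERF7 and of factor 4 were -0.06 and -0.07. The median lengths were 765 bp for ERF7 and 683 bp for factor 4. With SS levels on each unigene's own length, both medians were positive under every scaling and pseudocount tried.

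The highest ERF unigene was an ethylene-responsive element binding protein, Bju_CS52_R_18444, a name that in Arabidopsis belongs to a group VII factor of the oxygen-sensing pathway. It had 2841 reads in SS and 1744 in CTRL on 1014 bp, or 31.2 RPKM in SS and 18.1 RPKM in CTRL. This was the highest level of the whole set in SS, while 3 unigenes of the set stood above it in CTRL. The ratio was 1.72 (1.62 to 1.83), short of 2-fold, and of the whole set this unigene had the most reads in SS. A second unigene of the name, Bju_CS52_R_2505 with its own B. rapa match, had 70 reads in SS and 51 in CTRL, a log2 ratio of 0.51 that turned to -0.72 on the deposited SS values. Ethylene-responsive element binding factor 15 (Bju_CS52_R_11913), a positive regulator of the abscisic acid response in Arabidopsis, had 109 reads in SS and 71 in CTRL, a ratio of 1.62 (1.19 to 2.22).

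The other group VII names did not share this ratio. RAP2.2, written related to AP2 2 in the table, had 8 unigenes of 1 RPKM or more between -0.36 and 0.07, with 5889 reads in SS and 6430 in CTRL. Its highest were Bju_CS52_R_21419, with 14.3 RPKM in SS and 14.0 RPKM in CTRL, and Bju_CS52_R_7349, with 12.6 RPKM in SS and 12.0 RPKM in CTRL, which hardly differed between the libraries. A further unigene named ethylene-responsive transcription factor RAP2-2, the only one of the set outside the rapa series, had 222 reads in SS and 323 in CTRL, a ratio of 0.726 (0.609 to 0.864). RAP2.12 (Bju_CS52_R_24542) had 1188 reads in SS and 1290 in CTRL, a log2 ratio of -0.04. Over all 12 unigenes with group VII names and 1 RPKM or more, 6 lay above 0 and 6 below. Those above 0 include the 2 of the ethylene-responsive element binding protein.

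Among the remaining RAP2 factors, RAP2.7 was lower in SS in all 4 of its unigenes. This factor, also known as TOE1, delays flowering in Arabidopsis and is controlled by miR172. Bju_CS52_R_21054 had 1372 reads in SS and 1779 in CTRL, or 12.6 RPKM in SS and 15.5 RPKM in CTRL, a ratio of 0.815 (0.759 to 0.875). The other 3 had ratios between 0.601 (Bju_CS52_R_4305, with 41 reads in SS and 72 in CTRL) and 0.713, all with intervals below 1. With the SS values as deposited, which carry length, the log2 ratio of Bju_CS52_R_21054 turned above 0, to 0.22. RAP2.4, a drought- and light-responsive factor in Arabidopsis, had 6 unigenes between -0.26 and 0.03. Its best covered one, Bju_CS52_R_18670, had 1697 reads in SS and 2149 in CTRL, or 18.4 RPKM in SS and 22.0 RPKM in CTRL, a ratio of 0.834 (0.782 to 0.889), and its log2 ratio of -0.26 turned to 0.016 on the deposited SS values. RAP2.1 had 38 reads in SS and 43 in CTRL. RAP2.6L (Bju_CS52_R_4952) stayed under 1 RPKM, with 7 reads in SS and 27 in CTRL, a ratio of 0.274 (0.101 to 0.645).

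**Figure D4:**
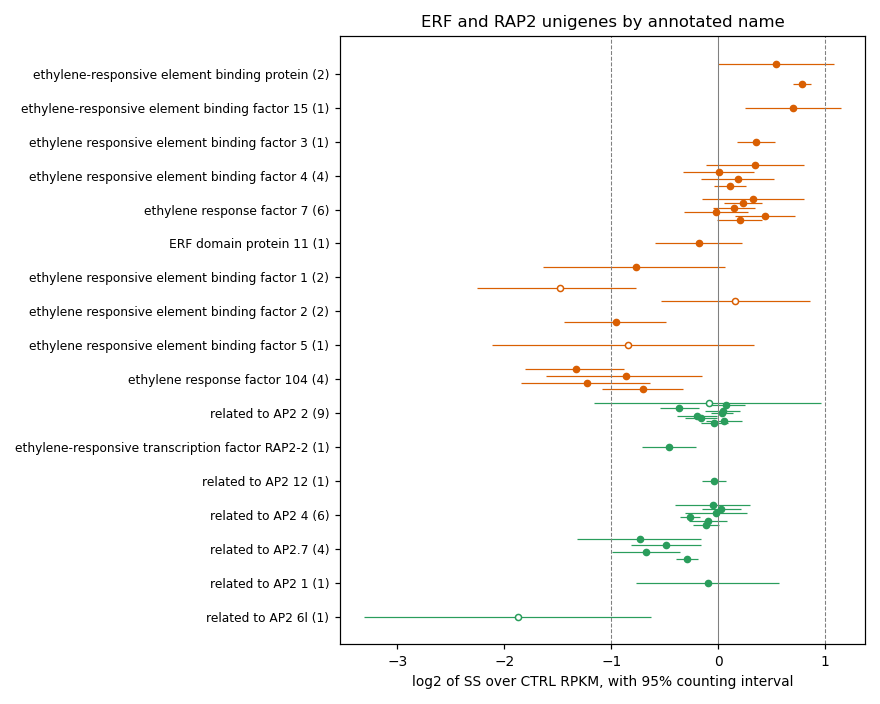
Log2 of the SS over CTRL ratio of RPKM without a pseudocount (horizontal), with its 95% counting interval, for each ERF (orange) and RAP2 (green) unigene by annotated name, with the number of unigenes in brackets. Open circles are unigenes under 1 RPKM in both libraries, and dashed lines mark 2-fold. All 4 ERF104 and all 4 RAP2.7 intervals lie left of 0, and Bju_CS52_R_18444 of the ethylene-responsive element binding protein lies right of it at a ratio of 1.72.

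The AP2/B3 names held 3 of the lower unigenes. Bju_CS52_R_16967, matched to Bra034828, had 170 reads in SS and 473 in CTRL on 913 bp, or 2.07 RPKM in SS and 5.46 RPKM in CTRL. Its ratio of 0.38 (0.317 to 0.453) has an interval wholly below 0.5, and the log2 ratio stayed at -1.30 with the trend removed. Bju_CS52_R_3111 had 27 reads in SS and 78 in CTRL, a ratio of 0.366 (0.227 to 0.573). Bju_CS52_R_4452 had 25 reads in SS and 62 in CTRL, a ratio of 0.426 (0.256 to 0.688), and its longer partners on Bra024735 had ratios of 0.566 and 0.651. With the SS values as deposited, the AP2/B3 unigenes of Bra024735 lay on both sides of 0. On the higher side, Bju_CS52_R_10031 had 285 reads in SS and 217 in CTRL, a ratio of 1.39 (1.16 to 1.66), and its log2 ratio of 0.46 turned to -0.15 on the deposited SS values. Both unigenes of Bra022376 were higher as well, with ratios of 1.29 and 1.19, and Bju_CS52_R_24515 among them was the highest AP2/B3 unigene at 10.5 RPKM in SS and 8.83 RPKM in CTRL. Of the 10 lower unigenes of the whole set, 2 had an interval wholly below 0.5, Bju_CS52_R_16967 and Bju_CS52_R_11134.

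The ARIA-interacting double AP2 domain protein (Bju_CS52_R_18326), a partner of an abscisic acid signalling protein in Arabidopsis, had 438 reads in SS and 709 in CTRL, a ratio of 0.653 (0.578 to 0.736). The pair of other AP2-domain unigenes, both on Bra024743, differed by less than their counting error, and the larger log2 ratio was 0.19 for Bju_CS52_R_3403, with 34 reads in SS and 31 in CTRL. The DREB2A-interacting protein 2 (Bju_CS52_R_24107), a ubiquitin ligase that marks DREB2A for breakdown in Arabidopsis, had 749 reads in SS and 676 in CTRL, a ratio of 1.17 (1.05 to 1.30). The phosphatase Bju_CS52_R_19696 was the highest unigene of the set in CTRL, with 23.3 RPKM in SS and 24.9 RPKM in CTRL. It hardly differed between the libraries. Another phosphatase, Bju_CS52_R_24366, had 1576 reads in SS and 1281 in CTRL, a ratio of 1.30 (1.21 to 1.40). The extremes of the phosphatases were Bju_CS52_R_15158, with 208 reads in SS and 154 in CTRL, and Bju_CS52_R_18501, with 949 reads in SS and 1156 in CTRL, whose log2 ratio of -0.20 turned to 0.056 on the deposited SS values.

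Several unigenes often stood for 1 B. rapa gene. The 146 unigenes had 87 matches, of which 35 were shared by 2 or more unigenes and the largest by 8. Such unigenes can be fragments, homeologs from the A and B genomes or close paralogs, and reads may be split between them by the mapping, so they are not independent. The authors merged transcripts of more than 70% identity, so 1 unigene can also stand for several homeologs or paralogs. Over the shared matches, the log2 ratios of all unigenes lay below 0 in 14, above 0 in 8 and on both sides in 13. The median range within a match was 0.43. The widest was on Bra027697, where Bju_CS52_R_12701 had 306 reads in SS and 182 in CTRL, and Bju_CS52_R_20829 had 210 in SS and 329 in CTRL. Their ratios of 1.78 (1.47 to 2.15) and 0.674 (0.564 to 0.804) have intervals on opposite sides of 1. With reads summed per match, 8 of 87 matches had a ratio of 0.5 or less and 1 had a ratio of 2 or more, with no minimum level. The same shares over all B. rapa matches were not worked out, so these counts per match stand without a background.

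**Figure D5:**
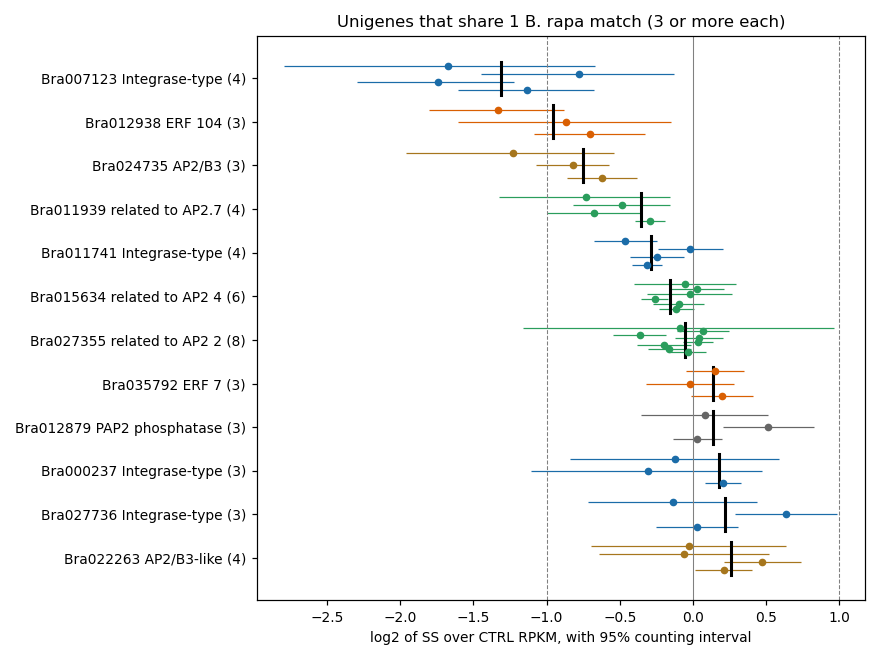
Log2 of the SS over CTRL ratio of RPKM without a pseudocount (horizontal), with its 95% counting interval, for the unigenes of each B. rapa match that has 3 or more, the shortest unigene uppermost. Black bars give the ratio of the summed reads and dashed lines mark 2-fold. Bra007123 has the lowest summed ratio, 0.402, and Bra022263 the highest, 1.20.

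Unigene length moved with the lower calls. Of the 30 unigenes of the set under 500 bp and at 1 RPKM or more, 5 were lower by 2-fold or more (16.7%, beside 7.44% of all such unigenes) and 0 higher (beside 2.85%). Of the 104 longer ones, 5 were lower (4.81%, beside 3.02%) and 1 higher (beside 1.57%). Low level moved with them too: of the 89 unigenes between 1 and 5 RPKM, 8 were lower (8.99%, beside 5.57%) and 1 higher (beside 2.33%). Of the 45 at 5 RPKM or more, 2 were lower (4.44%, beside 2.18%) and 0 higher (beside 1.29%). The part of length and level in the counts was not tested.

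Genes around the AP2/ERF factors were read from names of ethylene and of cold or dehydration response. Names of ethylene synthesis, perception and EIN3 signalling covered 28 unigenes, of which 24 reached 1 RPKM. None of the 24 reached 2-fold in either direction (beside 1.91% higher and 4.21% lower over all unigenes). With no minimum level, 1 of the 28 was lower by as much (beside 4.45%) and 0 higher (beside 2.13%). Of the 24, 9 lay above 0 and 15 below. Their median log2 ratio was -0.07, which turned to 0.02 with the trend removed and to 0.80 with the SS values as deposited. The ethylene response sensor 1 (Bju_CS52_R_28118), an ethylene receptor, had 767 reads in SS and 458 in CTRL, a ratio of 1.77 (1.57 to 1.99). ETO1-like 2, of the family that marks ethylene-producing enzymes for breakdown, had both unigenes lower, between -0.85 and -0.66. The ethylene-forming enzyme had the highest level of this list, with 97.0 RPKM in SS and 123 RPKM in CTRL. Its ratio was 0.789 (0.77 to 0.81). Cold or dehydration response names covered 34 unigenes, of which 33 reached 1 RPKM. Of these 33, 27 lay above 0 and 18.2% below (beside 57.4% of all unigenes), and the median was 0.12 (beside -0.06). The interval lay above 1 for 45.5% of them (beside 20.7%). That share depends on read number, and their median level in SS was 8.57 RPKM, beside 3.27 RPKM over all unigenes. By 2-fold or more, 1 was higher (3.03%, beside 1.91%) and 0 lower (beside 4.21%). The higher one was cold regulated 15b (Bju_CS52_R_10459), a DREB/CBF target in Arabidopsis, with 381 reads in SS and 134 in CTRL, a ratio of 3.0 (2.46 to 3.68). Inducer of CBF expression 1, the activator upstream of C-repeat binding factors, had 179 reads in SS and 248 in CTRL. Most other names of this list, such as the ERD4 and drought-responsive families, are not tied to DREB factors by name.

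AP2/ERF factors under names that the wording missed were looked up after the values were seen. They were 19 unigenes, of which 18 reached 1 RPKM, with 2 lower by 2-fold or more (11.1%, beside 4.21% of all unigenes), 0 higher (beside 1.91%) and a median of -0.12 (beside -0.06). They included both unigenes of DRE/CRT-binding protein 2B, a DREB factor that dehydration and salt induce in Arabidopsis. Bju_CS52_R_22808 had 183 reads in SS and 429 in CTRL, a ratio of 0.451 (0.377 to 0.537), and Bju_CS52_R_16955 had 124 in SS and 168 in CTRL, a ratio of 0.78 (0.613 to 0.989). The other lower one was a unigene of AINTEGUMENTA-like 6 (Bju_CS52_R_1392), with 14 reads in SS and 35 in CTRL. The 6 unigenes of cytokinin response factor 2 had log2 ratios from -0.48 to 0.79, with a median of 0.28. The 3 of AINTEGUMENTA-like 5 ran from 0.38 to 0.60.

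Leaf and root content of the pools was read from marker names. The 25 unigenes with light-harvesting or chlorophyll A-B binding names had a summed level of 52323 RPKM in SS and 65297 RPKM in CTRL. They ranged from 0.65 RPKM to 21396 RPKM in SS and from 1.18 RPKM to 25598 RPKM in CTRL. They had a median log2 ratio of -0.22, with 4 lower in SS by 2-fold or more (16%, beside 4.21% of all unigenes), 0 higher (beside 1.91%) and none at 0 reads. This median turned to 0.16 with the SS values as deposited. The 10 root-named unigenes at 1 RPKM or more summed to 101 RPKM in SS and 108 RPKM in CTRL, with a median of -0.06. Of these names only root hair specific 10 marks root tissue as such, with 3 unigenes between -0.13 and 0.17. The part of shoot and root content in the AP2/ERF ratios was not tested.

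The 12 unigenes of the set under 1 RPKM in both libraries had few reads. They were 4 AP2/B3, 3 ERF, 3 Integrase-type and 2 RAP2 unigenes. Among them, 2 would count as at least 2-fold lower, the RAP2.6L unigene and Bju_CS52_R_14851, and 1 as higher. This last one was the AP2/B3-like Bju_CS52_R_7372, with 35 reads in SS and 14 in CTRL.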

How the data were processed

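RNA from pooled seedlings was sequenced in 1 SS and 1 CTRL library. The authors assembled reads with Trinity after a TopHat alignment to B. rapa and merged transcripts of more than 70% identity. They mapped reads to unigenes with BOWTIE2 and normalized with DESeq. For these tools no versions are known here. The deposited CTRL column is RPKM. The deposited SS column is a signal: all 47505 values listed were multiples of 1 read on 849 bp (tolerance 0.01 read), so whole reads were recovered, whereas the plan had assumed RPKM.

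CTRL reads and lengths were the whole numbers giving each CTRL value on 94800630 reads, with length increasing along the unigene numbers (0 violations; 1 length for 47390 unigenes, the whole AP2/ERF set included). SS reads were then put on the same lengths.

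Intervals (95%, Poisson for reads, Clopper-Pearson for ratios, SciPy 1.17.1) cover counting error only, not PCR duplicates. Without replicates no count test was run. Scripts were tested on simulated data. The AP2/ERF set, lists and named genes were chosen with earlier results of these data known. Named were all unigenes of the set past 2-fold, the 8 highest in each library, the extremes of each annotated group and unigenes sharing a single-gene name. Others were chosen after their values were seen. Other columns of sample values numbered 0. Alternatives were the pseudocount, the minimum level, the scaling, the deposited SS values and a running trend over 500 unigenes.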

Additional observations from a re-analysis of the deposited data

How the results depend on the processing

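With 1 library per condition no replicate could be left out, and no paired analysis was possible because the result comes from no test. The 10 lower unigenes (7.46%, beside 4.21% of all unigenes) were 11 with a pseudocount of 0.01 RPKM (8.21%, beside 4.78%). They were 12 with no minimum level (8.22%, beside 4.45%) and 8 with size factors (5.93%, beside 3.56%). With the same total in both libraries they were 10 (7.46%, beside 4.25%). They were 1 with a pseudocount of 1 RPKM (0.746%, beside 1.49%) and 2 at a minimum of 5 RPKM (4.44%, beside 2.18%). They were 5 with the running trend removed (3.73%, beside 3.25%) and 32 on the deposited SS values (24.4%, beside 21.6%). The 1 higher unigene became 0 with a pseudocount of 1 RPKM (beside 0.932% of all unigenes) and 0 at a minimum of 5 RPKM (beside 1.29%). It became 2 of 146 with no minimum (beside 2.13%) and 2 of 134 with the running trend removed (beside 2.28%). On the deposited SS values 7 of 131 were higher (beside 16.6%). The set's median log2 ratio of -0.11 was -0.0043 with the running trend removed, and otherwise lay between -0.18 and -0.035, with every value below 0. Over all unigenes the 828 higher and 1820 lower became 403 and 644 with a pseudocount of 1 RPKM, 225 and 380 at a minimum of 5 RPKM, and 7033 and 9144 with the SS values as deposited, which carry unigene length. A pseudocount of 1 RPKM lessens the change of low unigenes by its construction, and the minimum of 5 RPKM leaves 45 of the set. Without the phosphatases and the interacting protein, 1 was higher (0.8%) and 10 lower (8%) of 125. With the AP2/B3 names left out too, a choice made after seeing the data, 1 was higher (1.03%) and 7 lower (7.22%) of 97. Over all unigenes 1.91% were higher and 4.21% lower. No named unigene past 2-fold changed sign under the scalings and pseudocounts tried. Several within 2-fold did on the deposited SS values, which carry length, such as Bju_CS52_R_10031 and Bju_CS52_R_18670. On those values Bju_CS52_R_18444, Bju_CS52_R_24107 and Bju_CS52_R_24366 passed 2-fold, with log2 ratios of 1.04, 1.04 and 1.23. Of the 11, 6 stayed past 2-fold with the trend removed and 9 with size factors. The ratios of unigenes with under 100 reads have wide intervals, so their order is not set at this depth.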
